A study of Mus musculus with 24 samples.

Results

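The genes described here are 35 genes of cholesterol synthesis, uptake and efflux, chosen by symbol and followed in nuclear RNA of spinal astrocytes of mouse pups. They are 7 enzymes of the mevalonate arm, 11 enzymes of the squalene and sterol arm, 5 genes of the SREBP control system, 4 genes of sterol transport and storage inside the cell, 6 genes of the liver X receptor (LXR) and efflux group, and 2 genes of lipoprotein uptake. All 35 were present in each of the 4 tables of normalized counts, out of 14243 genes at P4, 13699 at P10, 15246 at P24 and 14985 in the comparison of ages, and all 35 were tested in each. Pups of every group, naive controls included, had the genotype Aldh1l1-creERT2(+/-); R26-LSL-Sun1.GFP(+/-). In them a tamoxifen-inducible Cre recombinase under the promoter of the astrocyte gene Aldh1l1 switches on a Sun1-GFP fusion protein of the nuclear envelope, so any nucleus in which Cre has acted is marked, and the time of tamoxifen is not given in the sources used here. The incised groups underwent surgery on 1 hindpaw at postnatal day 3 (P3), and the groups labelled naive were exposed to isoflurane without surgery. The dorsal horn of the lumbar cord on the incised side was collected at P4, P10 or P24, which is 1, 7 or 21 days after the incision, and GFP-positive nuclei were sorted by fluorescence. There were 4 naive and 4 incised libraries at each age, 24 in all, each from 1 mouse. The comparison of ages shows the normal course in naive pups and the 3 incision comparisons show the response to injury at each age. Groups follow the sample characteristics, which match the deposited sample sheet for 24 of 24 libraries, whereas the titles give another group for 2 libraries, MB12 (P10 naive here) and MB16 (P10 incised here).

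Cells make cholesterol from acetyl-CoA. The mevalonate arm builds isoprenoid units and joins them to farnesyl diphosphate, and the squalene and sterol arm closes them into lanosterol and trims that to cholesterol. The transcription factors SREBP-1 and SREBP-2 (genes Srebf1 and Srebf2) switch these enzymes on when the endoplasmic reticulum is low in sterol; the escort protein SCAP carries them to the Golgi for cleavage and the INSIG proteins hold them back. Oxysterols that accumulate when sterol is plentiful activate the LXR receptors, which raise the efflux pumps ABCA1 and ABCG1, apolipoprotein E and the ubiquitin ligase MYLIP. The blood-brain barrier keeps plasma cholesterol out, so the central nervous system makes its own. Astrocytes are a main source, and they pass it to neurons on apolipoprotein E particles, while oligodendrocytes make large amounts of it for myelin.

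Promoter windows from RefSeq (GRCm38.p6), 250 bases before to 50 bases after the start site, were matched for 29 of the 35 genes. Fdps, Fdft1, Sqle, Stard4, Npc1 and Abcg1 had no entry. Both strands were searched for the core letters of elements linked to this pathway, and a match is a description of letters only. The sterol element letters TCACNCCAC stood in 1.24% of all 32851 windows and in 1 matched member, Hmgcs1, from -137 to -129. The overlapping letters ATCACNCCA, which share most of their bases with the first pattern, stood in 0.868% of windows and in 1 matched member, Srebf2, from -163 to -155. The NF-Y box CCAAT, bound by a factor that works beside SREBP at many sterol genes, stood in 41.1% of all 27025 genes with a window and in 22 of the 29 matched members (75.9%). By role it stood in 14 of the 15 matched synthesis enzymes, the exception being Acat2, and in 8 of the 14 other matched members. The LXR element, a direct repeat of the nuclear receptor half-site with a spacer, stood in 0.0152% of windows and in 0 matched members. The 250 bases before the start site are shown for the 2 members with a match to TCACNCCAC (Hmgcs1, HMG-CoA synthase) or to ATCACNCCA (Srebf2, SREBP-2). They are also shown for the 2 synthesis enzymes that rose between P4 and P10. Capitals mark TCACNCCAC in Hmgcs1, ATCACNCCA in Srebf2, and the NF-Y boxes, as CCAAT or its complement ATTGG. Each sequence is read 5′ to 3′ on the strand of the gene.
Hmgcs1, chr13:119690101-119690350, plus strand: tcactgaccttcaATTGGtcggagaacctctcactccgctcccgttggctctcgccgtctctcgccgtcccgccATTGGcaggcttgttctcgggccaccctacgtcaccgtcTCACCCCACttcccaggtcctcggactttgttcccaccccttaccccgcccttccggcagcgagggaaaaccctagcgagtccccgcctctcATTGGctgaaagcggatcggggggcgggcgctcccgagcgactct
Srebf2, chr15:82147019-82147268, plus strand: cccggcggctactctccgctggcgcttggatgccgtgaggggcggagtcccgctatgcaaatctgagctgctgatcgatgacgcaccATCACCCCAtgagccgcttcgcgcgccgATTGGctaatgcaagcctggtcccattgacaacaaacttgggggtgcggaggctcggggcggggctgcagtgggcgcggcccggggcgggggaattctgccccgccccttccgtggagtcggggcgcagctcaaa
Mvd, chr8:122443423-122443672, minus strand: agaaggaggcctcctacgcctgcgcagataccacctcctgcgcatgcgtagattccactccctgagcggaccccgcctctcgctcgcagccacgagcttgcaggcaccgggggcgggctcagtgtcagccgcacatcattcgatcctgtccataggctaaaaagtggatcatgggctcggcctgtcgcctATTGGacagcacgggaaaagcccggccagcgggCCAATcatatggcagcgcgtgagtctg
Idi1, chr13:8885356-8885605, plus strand: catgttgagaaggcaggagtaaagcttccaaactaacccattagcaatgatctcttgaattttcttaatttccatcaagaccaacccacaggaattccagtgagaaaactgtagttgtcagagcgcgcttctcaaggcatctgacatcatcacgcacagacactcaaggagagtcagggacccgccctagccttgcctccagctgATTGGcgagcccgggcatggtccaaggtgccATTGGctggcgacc
Within these bases the Hmgcs1 promoter held 3 NF-Y boxes, those of Mvd and Idi1 2 each and that of Srebf2 1.

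The values are normalized counts that the authors scaled within each table, so sequencing depth is unknown and levels are compared only within a table. Column sums of the 3 incision tables ran from 3880251 (MB4, P4 naive) to 6512585 (MB17, P24 naive), and Spearman correlations between libraries of a group ran from 0.824 to 0.977. All 12 astrocyte markers were present, and their summed normalized counts in naive pups ranged over 69756 to 87695 for P4, 88664 to 125300.3 for P10 and 91371 to 137452 for P24. By the test described below, 6 of the 12 rose and 1 fell from P4 to P10. From P10 to P24, 3 rose and 6 fell, and from P4 to P24, 6 rose and 3 fell. The part of the astrocyte markers in the changes of the members was not tested. Markers of other cell types were also read. Summed over 13 oligodendrocyte genes the naive libraries held 1569 to 2873 normalized counts for P4, 12952 to 22606 for P10 and 86174 to 99559 for P24, with no marker at 0 in any group. They rose with age, 11 of 13 from P4 to P10, 12 of 13 from P10 to P24 and 13 of 13 from P4 to P24, beside the changes with age described below, and their part in those changes was not tested. Neuron markers summed to 5053 to 6712 for P4, 4290.2 to 6115 for P10 and 9298 to 12363 for P24, and microglia markers to 1011 to 1228, 676 to 894 and 923 to 1319.7 in the same order. In RNA pooled from sorted nuclei, fewer nuclei of a type and less RNA per nucleus cannot be told apart.

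With age, 12 of the 35 genes differed across P4, P10 and P24 in naive pups, against 24.8% of all genes tested (limma on log2(normalized count + 1) with a term for sex, Benjamini-Hochberg adjusted p under 0.05, n = 4 libraries an age). From P4 to P10, 5 genes rose and 1 fell, where 13.1% of all genes were called, 7.55% as higher and 5.58% as lower. The 5 were Mvd and Idi1 of the mevalonate arm, the SREBP genes Insig1 and Srebf1, and the lipoprotein receptor Lrp1, and the gene that fell was the efflux pump Abcg1. From P10 to P24, 2 genes rose (Abcg1 and Lcat) and 8 fell (Tm7sf2, Insig1, Srebf1, Stard4, Abca1, Apoe, Lrp1 and Mylip), and 13.1% of all genes were called, 7.59% as higher and 5.51% as lower. From P4 to P24, 5 genes rose (Hmgcs1, Mvd, Ebp, Lcat and Lrp1) and 2 fell (Abca1 and Apoe), where 18.1% of all genes were called, 10.8% as higher and 7.33% as lower. The share called among the members was therefore near that of all genes in P10 against P4 and in P24 against P4. The median log2 change of the members was 0.26 from P4 to P10, -0.09 from P10 to P24 and 0.20 from P4 to P24, beside -0.02, 0.03 and 0.01 for all genes. With 1 library left out, the members' median ran from 0.15 (without MB4) to 0.37 (without MB3) from P4 to P10. It ran from -0.19 (without MB20) to 0.03 (without MB9) from P10 to P24. From P4 to P24 it ran from 0.03 (without MB4) to 0.28 (without MB3). Without limma's intensity trend and robust settings 3 of the 6 calls from P4 to P10 stood (Mvd, Abcg1 and Lrp1), 3 of the 10 from P10 to P24 (Abca1, Abcg1 and Apoe), 1 of the 7 from P4 to P24 (Lcat) and 5 of the 12 across ages (Mvd, Abca1, Abcg1, Lcat and Lrp1). Of the calls across ages, that of Idi1 was lost without MB2 or MB4 (adjusted p 0.0592 to 0.0669), without the sex term (0.113) and with sex from the titles (0.0651), that of Ebp without MB1, MB17, MB19 or MB20 (0.0547 to 0.134), and that of Stard4 without MB9, MB10, MB18, MB19 or MB20 (0.0571 to 0.130), without the sex term (0.0676), with sex from the titles (0.0871) and with groups and sex from the titles (0.0723). That of Apoe was lost with quantile normalization (adjusted p = 0.0553), which left no difference between P4 and P10 for this gene. Other members gained the call across ages: Npc1 and Mylip without MB9, without the sex term, with quantile normalization and under both settings from the titles (adjusted p 0.0158 to 0.0448), Nsdhl and Dhcr7 without MB3 (0.0374 and 0.00626), and Insig2 without MB9 (0.0428). Without MB20 the calls numbered 4 from P10 to P24 and 2 from P4 to P24.

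In the mevalonate arm the late step enzymes Mvd and Idi1 were higher at P10 than at P4. Mvd, mevalonate diphosphate decarboxylase (chr8:122433601-122443422, GRCm38, minus strand), which makes isopentenyl diphosphate, was at 376, 320.01, 503 and 249 normalized counts in the 4 naive libraries at P4, at 1117, 1147, 963 and 546 at P10 and at 695, 632, 591 and 549 at P24. Each P10 and each P24 library lay above each P4 library, and MB12 at P10 lay just under the lowest P24 library. The mean went from 362 ± 107 (SD, n = 4) to 943 ± 277 and then 617 ± 62.5, a log2 change from P4 to P10 of 1.37 ± 0.21 (SE; adjusted p = 0.000147), which stood without any 1 of the 12 libraries. From P4 to P24 it rose by 0.74 ± 0.22 (adjusted p = 0.0196), a call lost without MB1, MB2, MB4, MB17 or MB20 (adjusted p 0.0531 to 0.0985); from P10 to P24 the log2 change was -0.63 (adjusted p = 0.0595), and it passed without MB3 (-0.68, adjusted p = 0.0161), without MB12 (-0.81, adjusted p = 0.00729), with groups and sex from the titles (adjusted p = 0.00942) and with a mean of at least 50 (adjusted p = 0.0486). Idi1, isopentenyl diphosphate isomerase, was at 1215, 979, 814 and 539 normalized counts at P4, at 2058, 1814, 1047 and 864 at P10 and at 1491, 1479, 1211 and 1198 at P24. The P4 and P10 values overlap, because MB11 and MB12 at P10 lay inside the P4 range, while the P24 libraries lay close together. Its log2 change from P4 to P10 was 0.67 ± 0.17 (adjusted p = 0.010), and the call was lost without the sex term (adjusted p = 0.118) and with sex taken from the titles (adjusted p = 0.121). From P4 to P24 its log2 change was 0.48 (adjusted p = 0.0599), which passed without MB3, MB9, MB12 or MB19 (adjusted p 0.0325 to 0.0431), with sex from the titles (0.0461) and with a mean of at least 50 (0.0481).

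Hmgcs1, cytosolic HMG-CoA synthase (chr13:119690379-119708260, GRCm38, plus strand), whose promoter is shown above, was at 2009, 2227, 1937 and 1192 normalized counts at P4, at 3042, 2152, 2011 and 1741 at P10 and at 3253, 2927, 2348 and 2745 at P24. All P24 libraries lay above all P4 libraries, and the P10 libraries spanned both. It rose by 0.56 ± 0.17 on the log2 scale from P4 to P24 (adjusted p = 0.0236), and the call was lost without MB1, MB4, MB17 or MB20 (adjusted p 0.0646 to 0.184). The test across all ages did not pass for it (adjusted p = 0.0504), but it passed without MB3, MB9, MB10, MB12 or MB19 (adjusted p 0.0231 to 0.0496) and under 7 of the 10 other settings, the exceptions being the pseudocount of 0.5, no filter and limma without trend and robust settings. Those 7 include the fit without MB12 and MB16, which for the ages is the same fit as that without MB12. The other 4 enzymes of this arm passed no test of age. Acat2, the cytosolic acetoacetyl-CoA thiolase, had log2 changes of -0.28 and -0.02 in the successive steps; those of mevalonate kinase Mvk were -0.04 and -0.16. Phosphomevalonate kinase Pmvk had log2 changes of -0.02 and -0.06, and farnesyl diphosphate synthase Fdps of 0.29 and -0.23. Exons of Fdps share 77.4% of their bases with an overlapping gene model on the same strand, so how reads were split between them is uncertain. Exons of 8 of the 35 genes overlap a gene model on the opposite strand. The overlap covers 20.9% of the bases for Fdft1, 18.6% for Scap, 16.0% for Hmgcs1, 10.7% for Idi1 and at most 8.2% for the others. Whether the counting used strand is not given in the sources used here.

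In the squalene and sterol arm, 2 of the 11 enzymes differed with age, in opposite directions. Tm7sf2, a sterol delta-14 reductase, was at 873, 1068, 1124 and 532 normalized counts at P4, at 1287, 979, 1135 and 982 at P10 and at 598, 711, 631 and 609 at P24. Every P24 library was below every P10 library, and at P4 MB4 alone lay below the P24 libraries. The log2 change from P10 to P24 was -0.82 ± 0.19 (adjusted p = 0.00477), and it stood without any 1 library. From P4 to P24 the change was -0.49 (adjusted p = 0.0816), which passed without MB4 (-0.68, adjusted p = 0.00488) and with quantile normalization (adjusted p = 0.0289). Ebp, the sterol delta8-delta7 isomerase, was at 206, 299, 296 and 155 normalized counts at P4, at 428, 217, 198 and 222 at P10 and at 461, 425, 443 and 391 at P24. All P24 libraries lay above all P4 libraries, and at P10 MB9 alone reached the P24 level. Ebp rose by 0.81 ± 0.23 on the log2 scale from P4 to P24 (adjusted p = 0.0158; lost without MB1, MB4 or MB20, adjusted p 0.0523 to 0.0951), and its change from P10 to P24 was 0.68 (adjusted p = 0.0559). That second change passed without MB4 (0.71, adjusted p = 0.0417) or MB9 (0.95, adjusted p = 0.00703) and under 5 other settings (pseudocount of 5, mean of at least 50, no sex term, sex from the titles and quantile normalization; adjusted p 0.0260 to 0.0498). The mean over 4 libraries was 239 ± 70.3 (SD), 266 ± 108 and 430.2 ± 29.7 normalized counts at the 3 ages.

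The other 9 enzymes of this arm passed no pairwise test of age with all libraries. Squalene synthase Fdft1, at the branch point toward sterols, had log2 changes of 0.06 from P4 to P10 and 0.33 from P10 to P24. Squalene epoxidase Sqle, a rate-controlling step, had 0.14 and -0.19, and lanosterol synthase Lss 0.22 and -0.18. These 3 genes therefore stayed within 0.33 on the log2 scale in each step. For the lanosterol demethylase Cyp51 the log2 changes were -0.13 and -0.12, for the C4 demethylation enzymes Msmo1 0.10 and 0.17, Nsdhl 0.41 and -0.08, and Hsd17b7 0.36 and -0.10. Sterol C5 desaturase Sc5d had log2 changes of -0.21 and 0.22. Dhcr7, which reduces 7-dehydrocholesterol in the last step, had the highest log2 change from P4 to P10 in the arm, 0.51 ± 0.22 (adjusted p = 0.144). That value was made smaller by MB3, the P4 library with the highest Dhcr7. Without MB3 the log2 change was 0.77 (adjusted p = 0.0101) from P4 to P10 and 0.73 (adjusted p = 0.00827) from P4 to P24, and both passed. Nsdhl also passed from P4 to P10 without MB3 (0.59, adjusted p = 0.0334). Its values were 969, 918, 1309 and 517 normalized counts at P4, 1818, 1156, 1098 and 1064 at P10 and 1498, 1363, 1129.6 and 1285 at P24, so the ages overlapped. For all 18 synthesis enzymes, the mean log2 level in the age table was 9.83 ± 0.41 (SD over 4 libraries) at P4, 10.07 ± 0.35 at P10 and 10.09 ± 0.10 at P24, differences within the spread between libraries at P4 and P10. The enzymes' median log2 change was 0.18 from P4 to P10 (13 of 18 positive, 48.6% of all genes) and -0.09 from P10 to P24 (6 of 18 positive, 52.6% of all genes).

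**Figure D1:**
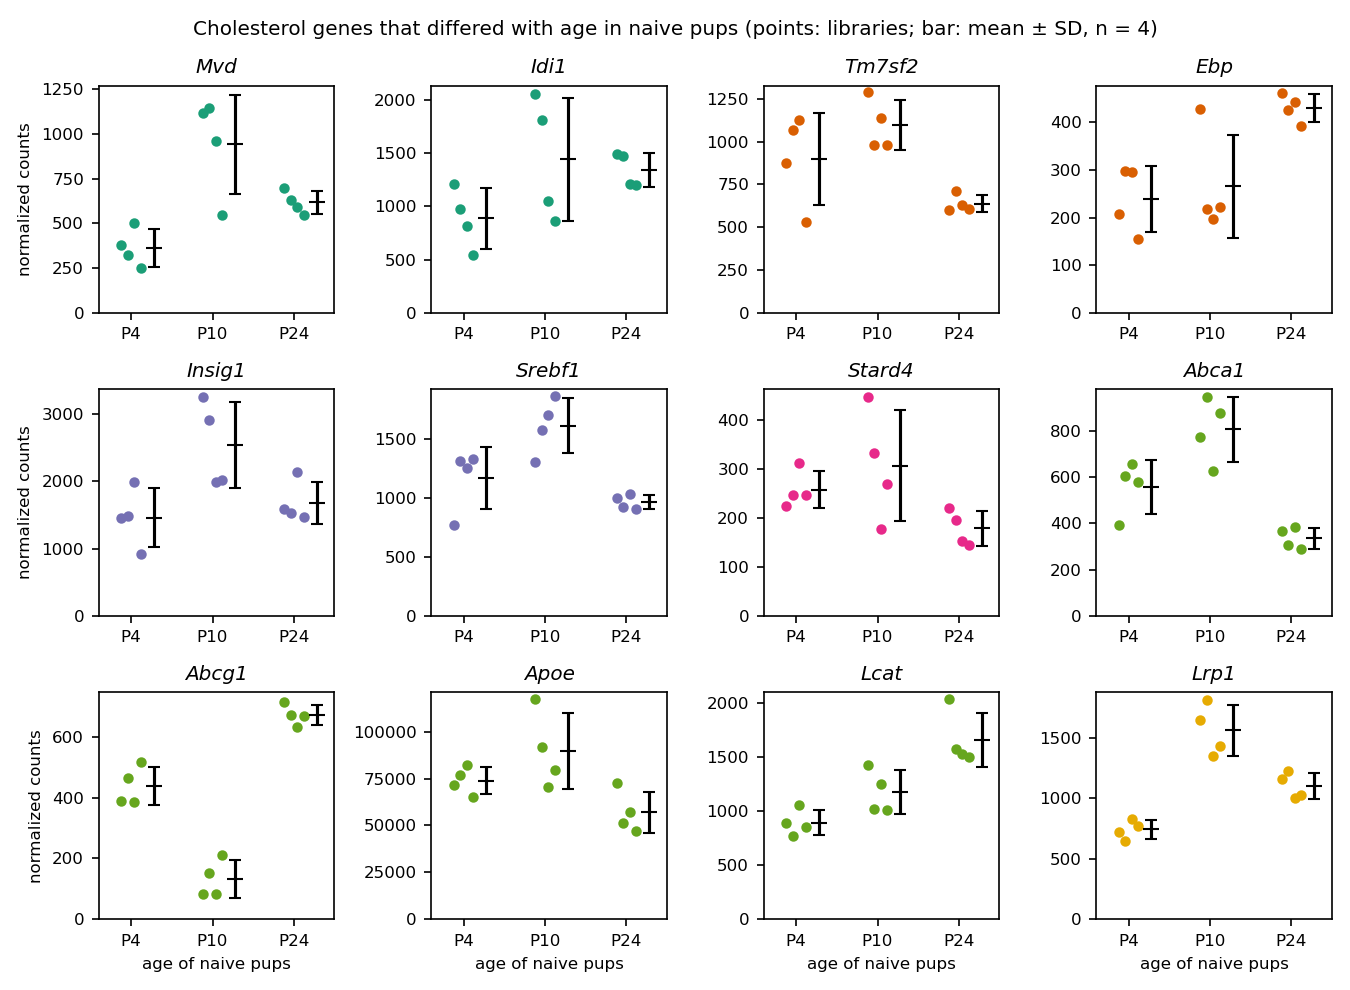
Normalized counts in the age table (vertical axis from 0, its own scale in each panel) at P4, P10 and P24 (horizontal axis) for the 12 members that differed across ages; each point is 1 naive library, coloured by role, and the bar is the mean ± SD of 4. Abcg1 dips at P10 to 82.3 to 212 and stands at 634 to 715 at P24, while Mvd, Insig1 and Lrp1 stand above P4 at P10.

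In the SREBP control group, Insig1 and Srebf1 rose from P4 to P10 and fell again by P24, and the other 3 members passed no test with all libraries. Insig1, which retains the SCAP-SREBP complex in the endoplasmic reticulum and is itself an SREBP target, was at 1455, 1484, 1985 and 917 normalized counts at P4, at 3253, 2916, 1989 and 2016 at P10 and at 1591, 1527, 2141 and 1471 at P24. Each P10 library was above each P4 library, though MB3 at P4 (1985) and MB11 at P10 (1989) nearly touched, and MB19 at P24 lay among the P10 values. The log2 change was 0.82 ± 0.19 from P4 to P10 (adjusted p = 0.00594) and -0.66 ± 0.19 from P10 to P24 (adjusted p = 0.0262). The first stood without any 1 library, and the second was lost without MB9, MB10, MB17, MB18 or MB20 (adjusted p 0.0693 to 0.0974), without the sex term (0.0767), with sex from the titles (0.113), and with groups and sex from the titles (0.0690). Srebf1, the gene of SREBP-1, was at 772, 1312, 1250.2 and 1329 normalized counts at P4, at 1306, 1571, 1702 and 1864 at P10 and at 997, 922, 1034 and 903 at P24. All P24 libraries lay below all P10 libraries, and at P4 MB1 alone was lower than the P24 libraries. Its fall from P10 to P24 was -0.68 ± 0.17 on the log2 scale (adjusted p = 0.00685; 0.0858 without MB20). The rise from P4 to P10, 0.49 ± 0.16 (adjusted p = 0.0472), was lost in 9 of the 12 fits that left out 1 library, namely MB1, MB3, MB4, MB10, MB11, MB12, MB17, MB18 and MB19 (adjusted p 0.0534 to 0.237). It was also lost without the sex term (0.0594), with quantile normalization (0.112), and with groups and sex from the titles (0.0935), which leaves out MB12. Srebf2, the gene of SREBP-2, had log2 changes of 0.44 and -0.09, the SREBP escort Scap of 0.37 and -0.28, and Insig2, the second INSIG gene, of -0.40 and 0.37. From P4 to P10, Srebf2 passed without MB11 (0.60, adjusted p = 0.0452), and Insig2, as lower, without MB9 (-0.62, adjusted p = 0.0496).

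Among the 4 genes of sterol transport and storage, Stard4 fell between P10 and P24. Stard4, a soluble carrier that moves sterol between membranes, was at 225, 248, 312 and 248 normalized counts at P4, at 448, 334, 177 and 269 at P10 and at 221, 196, 154 and 145 at P24. The P24 values were below all P4 values, but MB11 at P10 lay among them. The log2 change from P10 to P24 was -0.80 ± 0.24 (adjusted p = 0.0269), lost without MB9, MB10, MB18, MB19 or MB20 (adjusted p 0.0527 to 0.126), without the sex term (0.0516), with sex from the titles (0.0805), and with groups and sex from the titles (0.0687). From P4 to P24 it passed with quantile normalization alone (-0.71, adjusted p = 0.0295). Npc1, the late endosomal sterol exporter, was at 294, 305, 354 and 231 normalized counts at P4, at 361, 277, 204 and 255 at P10 and at 459.9, 463, 370.1 and 386 at P24. All P24 libraries were above all P10 libraries, with a log2 change of 0.57 ± 0.20 that did not pass (adjusted p = 0.0541). It passed without MB9 (0.71, adjusted p = 0.0230), without the sex term (0.63, adjusted p = 0.0338), with sex from the titles (0.70, adjusted p = 0.0167), with groups and sex from the titles (0.66, adjusted p = 0.0320), with quantile normalization (0.60, adjusted p = 0.0290) and with a mean of at least 50 (adjusted p = 0.0467). Its lumenal partner Npc2 had log2 changes of -0.14 and 0.34, and Soat1, which esterifies cholesterol for storage, of 0.14 and 0.08; neither passed, though Npc2 did from P10 to P24 without MB9 (0.49, adjusted p = 0.0358) and with sex from the titles (0.49, adjusted p = 0.0443).

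The efflux pumps Abca1 and Abcg1, both textbook LXR targets, moved in opposite directions between P10 and P24. Abcg1 (chr17:31057675-31117988, GRCm38, plus strand), which exports sterol to lipoprotein particles, was at 389, 463, 384 and 517 normalized counts at P4, at 83.2, 151, 82.3 and 212 at P10 and at 715, 673, 634 and 669 at P24. The 3 ages did not overlap: every P10 library was below every P4 library, and every P24 library was above both. The mean fell from 439 ± 63.7 (SD, n = 4) at P4 to 132 ± 62.1 at P10 and stood at 673 ± 33.1 at P24. The log2 changes were -1.83 ± 0.24 (adjusted p = 2.24e-05) and 2.48 ± 0.25 (adjusted p = 4.45e-07), and both stood under every setting tried. From P4 to P24 the change was 0.65 (adjusted p = 0.0733), and it passed without MB11 (0.69, adjusted p = 0.0230) or MB12 (0.60, adjusted p = 0.0420). Abca1 (chr4:53030787-53159895, GRCm38, minus strand), which loads sterol and phospholipid onto apolipoproteins, was at 391, 607, 657 and 577 normalized counts at P4, at 772, 948, 627 and 879 at P10 and at 368, 306, 383 and 289 at P24. All P24 libraries lay below all P4 and P10 libraries. The log2 change from P10 to P24 was -1.26 ± 0.19 (adjusted p = 6.70e-05), which stood under every setting tried, and that from P4 to P24 was -0.72 ± 0.19 (adjusted p = 0.00843; 0.0736 without MB20). From P4 to P10 it was 0.54 (adjusted p = 0.0560), which passed without MB3 (0.64, adjusted p = 0.0453) or MB11 (0.67, adjusted p = 0.0249) and with a mean of at least 50 (adjusted p = 0.0456).

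Apoe, the main apolipoprotein of astrocyte particles, was at 71372, 76958, 82262 and 65461 normalized counts at P4, at 117496, 91971, 70449 and 79902 at P10 and at 72447, 51359.9, 57279 and 47147 at P24. MB17 at P24 lay among the earlier libraries and the other 3 P24 libraries lay below all of them. It fell by 0.72 ± 0.14 on the log2 scale from P10 to P24 (adjusted p = 0.000980) and by 0.46 ± 0.14 from P4 to P24 (adjusted p = 0.0224). With quantile normalization neither call stood (log2 change -0.38 in both, adjusted p = 0.0683 from P10 to P24 and 0.0516 from P4 to P24). That setting gives genes of equal rank the same value in every library, and it left no difference between P4 and P10 for Apoe. It therefore cannot decide how firm the fall was. The call from P4 to P24 was also lost without MB3, MB18 or MB20 (adjusted p 0.0752 to 0.105), without the sex term (0.0889) and with sex from the titles (0.0574). Lcat, which esterifies cholesterol on lipoprotein particles, was at 886, 773, 1051 and 851 normalized counts at P4, at 1426, 1016, 1245 and 1009 at P10 and at 2033, 1577, 1528 and 1497 at P24. The P24 libraries lay above all others. The log2 change from P4 to P24 was 0.89 ± 0.16 (adjusted p = 0.000249) and stood under every setting tried. That from P10 to P24, 0.50 ± 0.16 (adjusted p = 0.0418), was lost without MB1, MB2, MB3, MB10, MB12, MB17, MB18, MB19 or MB20 (adjusted p 0.0510 to 0.146) and with groups and sex from the titles (adjusted p = 0.0909). The receptor genes themselves passed no test: Nr1h2 (LXR beta) had log2 changes of 0.42 and -0.08, and Nr1h3 (LXR alpha), a low gene here at 32.7 to 68.4 normalized counts at P4, of -0.03 and 0.79.

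Of the genes of lipoprotein uptake, Lrp1 differed across ages, while Mylip passed only the test from P10 to P24. Lrp1 (chr10:127538161-127621148, GRCm38, minus strand), an endocytic receptor that takes up apolipoprotein E particles among many ligands, was at 719, 648, 832 and 769.8 normalized counts at P4, at 1645, 1816, 1348 and 1433 at P10 and at 1156, 1228, 1001 and 1030.3 at P24. The 3 ages did not overlap, with P10 highest and P24 between. The log2 change was 1.07 ± 0.15 from P4 to P10 (adjusted p = 2.31e-05), which stood under every setting tried. From P10 to P24 it was -0.51 ± 0.15 (adjusted p = 0.0238; lost without MB9, MB10, MB19 or MB20, adjusted p 0.05001 to 0.102), and from P4 to P24 0.56 ± 0.15 (adjusted p = 0.00952; 0.0687 without MB2). Mylip, the LXR-induced ligase that marks lipoprotein receptors for degradation, was at 57.3, 58.6, 109 and 96.8 normalized counts at P4, at 65.9, 144, 174 and 114 at P10 and at 36.5, 67.5, 56.4 and 55.9 at P24. MB9 at P10 lay among the P24 values and the other 3 P10 libraries lay above them all. Its fall of -1.01 ± 0.33 on the log2 scale from P10 to P24 had an adjusted p of 0.0448 and was lost without MB2, MB3, MB4, MB10, MB11, MB17, MB19 or MB20 (adjusted p 0.0524 to 0.221), and the test across all ages did not pass for it (adjusted p = 0.0673).

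**Figure D2:**
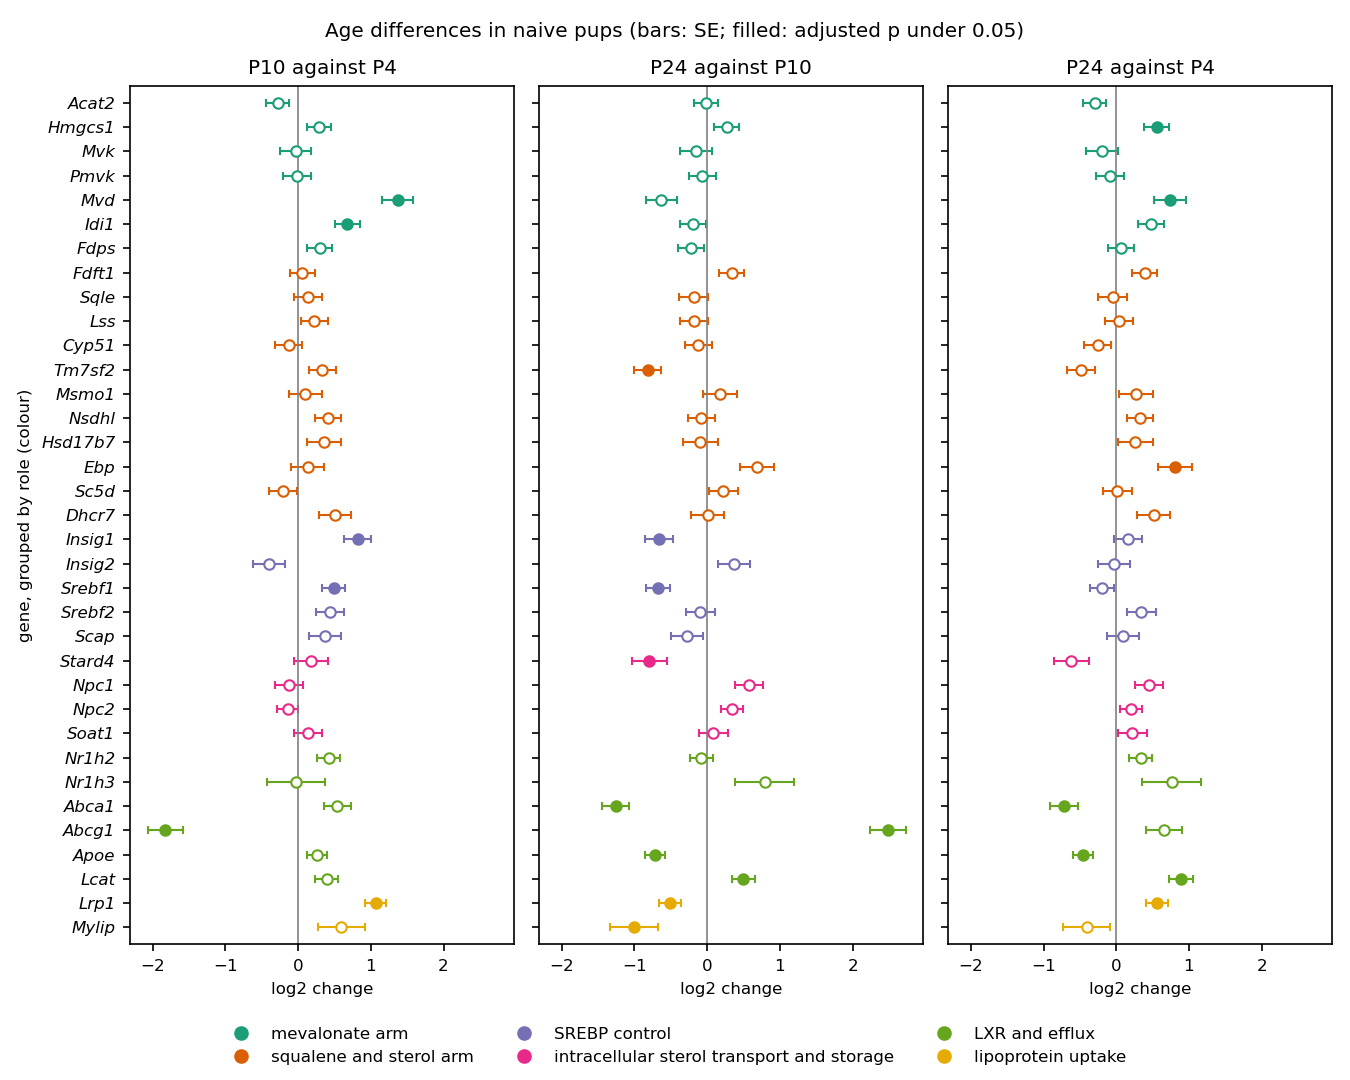
Log2 change ± SE (horizontal axis) of each of the 35 genes (vertical axis, coloured by role) in naive pups, in 3 panels for P10 against P4, P24 against P10 and P24 against P4; filled points have an adjusted p under 0.05. The filled points number 6, 10 and 7, and Abcg1 reaches -1.83 in the first panel and 2.48 in the second.

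Genes of sterol and fatty acid handling outside the 35 were read from a fixed list of 33. From P4 to P10, 8 of them rose and 4 fell; from P10 to P24, 6 rose and 0 fell; and from P4 to P24, 12 rose and 1 fell, where 13.1%, 13.1% and 18.1% of all genes were called in either direction. Cyp27a1, the mitochondrial sterol 27-hydroxylase, went from 46.5 ± 19.3 (SD, n = 4) normalized counts at P4 to 128 ± 61.1 at P10 and 587 ± 43.0 at P24, a log2 change from P4 to P24 of 3.88 (adjusted p = 2.30e-10). Cyp7b1, an oxysterol 7-alpha-hydroxylase, rose by 1.13 (adjusted p = 0.000248) from P4 to P10. Acss2, cytosolic acetyl-CoA synthetase, went from 364 ± 99.5 to 793 ± 279 and 1837 ± 150.1 normalized counts, a log2 change from P4 to P24 of 2.37 (adjusted p = 6.69e-07). The cholesterol ester hydrolases Nceh1 and Lipa rose from P10 to P24, by 1.67 (adjusted p = 6.24e-05) and 0.75 (adjusted p = 0.0190) on the log2 scale. Clu rose by 2.21 (adjusted p = 5.00e-05) from P4 to P10, and Apod by 2.81 (adjusted p = 0.000292) from P10 to P24, the step in which Apoe fell. The lipoprotein receptor Lrp8 fell by 1.24 (adjusted p = 0.000211) on the log2 scale from P4 to P24, and Vldlr had log2 changes of -0.70 (adjusted p = 0.0175) and 0.72 (adjusted p = 0.0159) in the successive steps. Apod and Cyp27a1 rose in the same libraries as the oligodendrocyte markers, whose sums at each age stand above, and the part of those markers in the rise was not tested.

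In some libraries the synthesis enzymes were shifted together against the rest of their group. In others they were not, as in MB6 (9 lower, 9 higher) and in MB10 and MB13 (8 lower, 10 higher in each). In the P4 naive group MB4 was lower than the mean of the other libraries for 18 of 18 enzymes, by a median of -0.85 on the log2 scale, while the median over all genes was -0.01 and 50.8% of genes were lower. It was the lowest of the 8 libraries of the P4 table for 16 of the 18. Its column sum of 3880251 was the lowest of that table, and its astrocyte markers summed to 58956, where the other P4 naive libraries had 67619 to 73770.2. At the other end, MB9 (P10 naive) was higher than the others of its group for 18 of 18 enzymes, with a median of 0.59, MB8 (P4 incised) for 17 with 0.40, and MB22 (P24 incised) for 18 with 0.28. The summed astrocyte markers of MB9 and MB8 were also the highest of their groups, 107298 against 77369 to 97782 and 83319 against 50971 to 65185, whereas MB22 with 109382 lay inside the range of its group. Lower libraries were MB12 (P10 naive, 17 of 18, median -0.38) and MB24 (P24 incised, 17 of 18, median -0.31). Their medians over all genes were 0.03 and 0.001, and they were the lowest of their groups for 2 and 7 of the 17 other members. In the age table, which is scaled separately, Insig1 was at 1455, 1484, 1985 and 917 normalized counts in the P4 naive libraries, lowest in MB4. Within the P4 naive group MB4 was the lowest library for 17 of the 18 enzymes and for 6 of the 17 other members, namely Insig1, Scap, Npc1, Npc2, Soat1 and Apoe, and the highest for 3 of those 17; Srebf1 and Srebf2 were not lowest there. The part of depth, of the share of astrocyte nuclei or of handling in this variation was not tested.

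**Figure D3:**
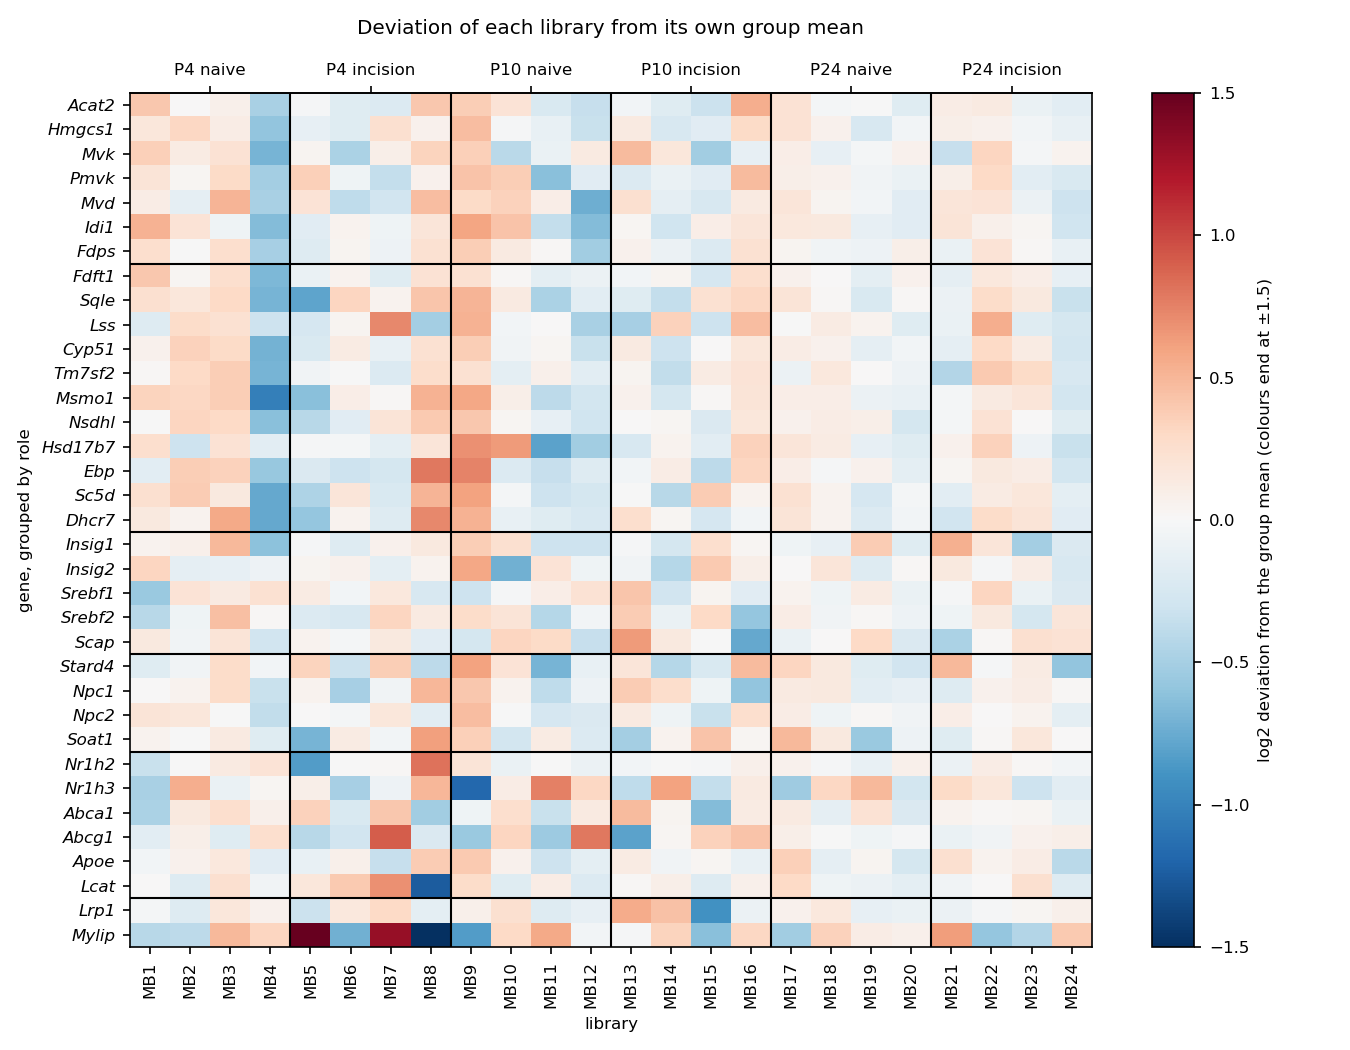
Log2 deviation of each library (columns, MB1 to MB24) from the mean of its group for each of the 35 genes (rows, by role), with colours ending at ±1.5 and black lines between groups and roles. The enzymes of MB4 are all below their group and those of MB9 all above.

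At P4, 1 day after incision, 0 of the 35 genes passed the test, where 4 of 14243 genes did (0.0281%). At an unadjusted p under 0.05 by limma, 3 of the 35 members were higher in incised pups, Srebf1, Apoe and Lrp1. That share was near the 8.01% of all genes with such a p. Srebf1 was at 645, 1092, 1038 and 1109 normalized counts in naive and at 1564, 1398, 1613 and 1218 in incised libraries, without overlap, a log2 change of 0.57 ± 0.21 (adjusted p = 0.546). Lrp1 was at 600.2, 538, 689 and 641 in naive and 697, 970.03, 1072 and 788 in incised libraries, again without overlap (0.42 ± 0.18; adjusted p = 0.585). Apoe was at 59600.4, 63976, 68243 and 54567 and 75889, 87031, 64961 and 106714, with 1 incised library inside the naive range (0.41 ± 0.18; adjusted p = 0.609). The unadjusted limma p was no longer under 0.05 for Srebf1 without MB5 (log2 change 0.38), for Lrp1 without MB2, MB3, MB4, MB6 or MB7, and for Apoe without MB1, MB2, MB3, MB4, MB6 or MB8. Scap was the third member whose groups did not overlap, with 129.9 to 182 in naive and 201 to 251 in incised libraries, and 5.9% of all genes had groups that did not overlap.

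Over all members the median log2 change at P4 was 0.22, beside -0.02 for all genes, and 22 of 35 were positive, where 47.8% of all genes were. For the synthesis enzymes it was 0.29, with 15 of 18 positive. These values rested on MB4, the naive library with low enzymes: without it 9 of 18 enzymes were positive with a median of -0.01, and the median over all 35 members was -0.04 with 16 positive. Without MB3 the enzymes' median was 0.44, with 18 of 18 positive, and without MB5 it was 0.48, with 17. The mean log2 level of the enzymes was 9.59 ± 0.41 (SD, n = 4) in naive and 9.82 ± 0.22 in incised libraries, a difference within the spread between libraries. Vascular markers at P4 summed to 455 to 621 in naive and 813 to 1115 in incised libraries, and oligodendrocyte precursor markers to 947 to 1135 and 1327 to 1755. Of 8 vascular markers 6 had a positive log2 change and 2 an unadjusted limma p under 0.05. Of 6 precursor markers 5 had a positive log2 change and 1 such a p. In both lists 0 passed the adjusted test. The part of these 2 lists in the members' values was not tested.

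At P10, 7 days after incision, 0 of 35 genes passed, and 0% of all 13699 genes did. An unadjusted p under 0.05 in limma was found for 2 of the 35 members, a share near the 4.66% of all genes. Abcg1 was at 70.6, 131, 71.2 and 181 normalized counts in naive and 124, 222, 275 and 293 in incised libraries, a log2 change of 1.05 ± 0.35 (adjusted p = 0.968). The incised values reached higher, with an overlap through MB13, and the log2 change was 1.17 without MB12 and MB16 and 1.09 with groups and sex from the titles. Lrp1 was at 1396, 1567, 1165 and 1225 in naive and 1348, 1234, 487 and 857 in incised libraries, overlapping, with a log2 change of -0.54 ± 0.19 (adjusted p = 0.968). This value rested in part on MB15, the incised library at 487: without it the change was -0.31 and the unadjusted limma p was no longer under 0.05, and over the fits that left out 1 library it ran from -0.64 to -0.31. The median over the 35 members was 0.02, with 18 positive where 49.3% of all genes were, and it was -0.15 without MB12 and MB16, the libraries with conflicting labels, and -0.16 with groups and sex from the titles. The sign of the change turned for 10 members in the first case and 12 in the second.

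At P24, 21 days after incision, 0 of 35 genes passed, and 0% of all 15246 genes did. The median log2 change of the members was -0.11, beside -0.02 for all genes, and 8 of 35 were positive, where 46.5% of all genes were. Unadjusted limma p-values under 0.05 were found for 3 of the 35 members, a share near the 8.11% of all genes. Lrp1 was at 1351, 1433, 1185 and 1197 normalized counts in naive and 939.8, 985, 1018 and 1053 in incised libraries, without overlap and lower after incision, as for 1 member of 35 where 4.96% of all genes had groups that did not overlap (-0.37 ± 0.13; adjusted p = 0.482). Insig1 was at 1824, 1748, 2486 and 1677 in naive and 3303, 2582, 1604 and 1964 in incised libraries, which overlap (0.38 ± 0.14; adjusted p = 0.503). Dhcr7 was at 1751, 1590.2, 1337 and 1493 and 997, 1473, 1391 and 1084, also overlapping (-0.33 ± 0.14; adjusted p = 0.567). Both values shrank without MB21, to 0.24 for Insig1 and -0.17 for Dhcr7, with unadjusted limma p-values no longer under 0.05, as for Dhcr7 also without MB17, MB20 or MB24. Over the fits that left out 1 library the values ran from 0.24 to 0.55 and from -0.47 to -0.17. Mean log2 levels of the synthesis enzymes were 10.30 ± 0.10 in naive and 10.17 ± 0.19 in incised libraries. Oligodendrocyte markers were lower after incision at this age, summing to 99651 to 113627 in naive and 75573 to 89722 in incised libraries; 13 of 13 had a negative log2 change and 11 an unadjusted limma p under 0.05, while 0 passed the adjusted test. Oligodendrocyte precursor markers summed to 4271 to 5966 in naive and 3084 to 4073 in incised libraries, without overlap; 6 of 6 had a negative log2 change and 5 an unadjusted p under 0.05 by limma. Microglia markers summed to 1072 to 1513 and 865 to 1318, with 8 of 10 negative and 3 with such a p. The part of these 3 lists in the members' values was not tested.

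**Figure D4:**
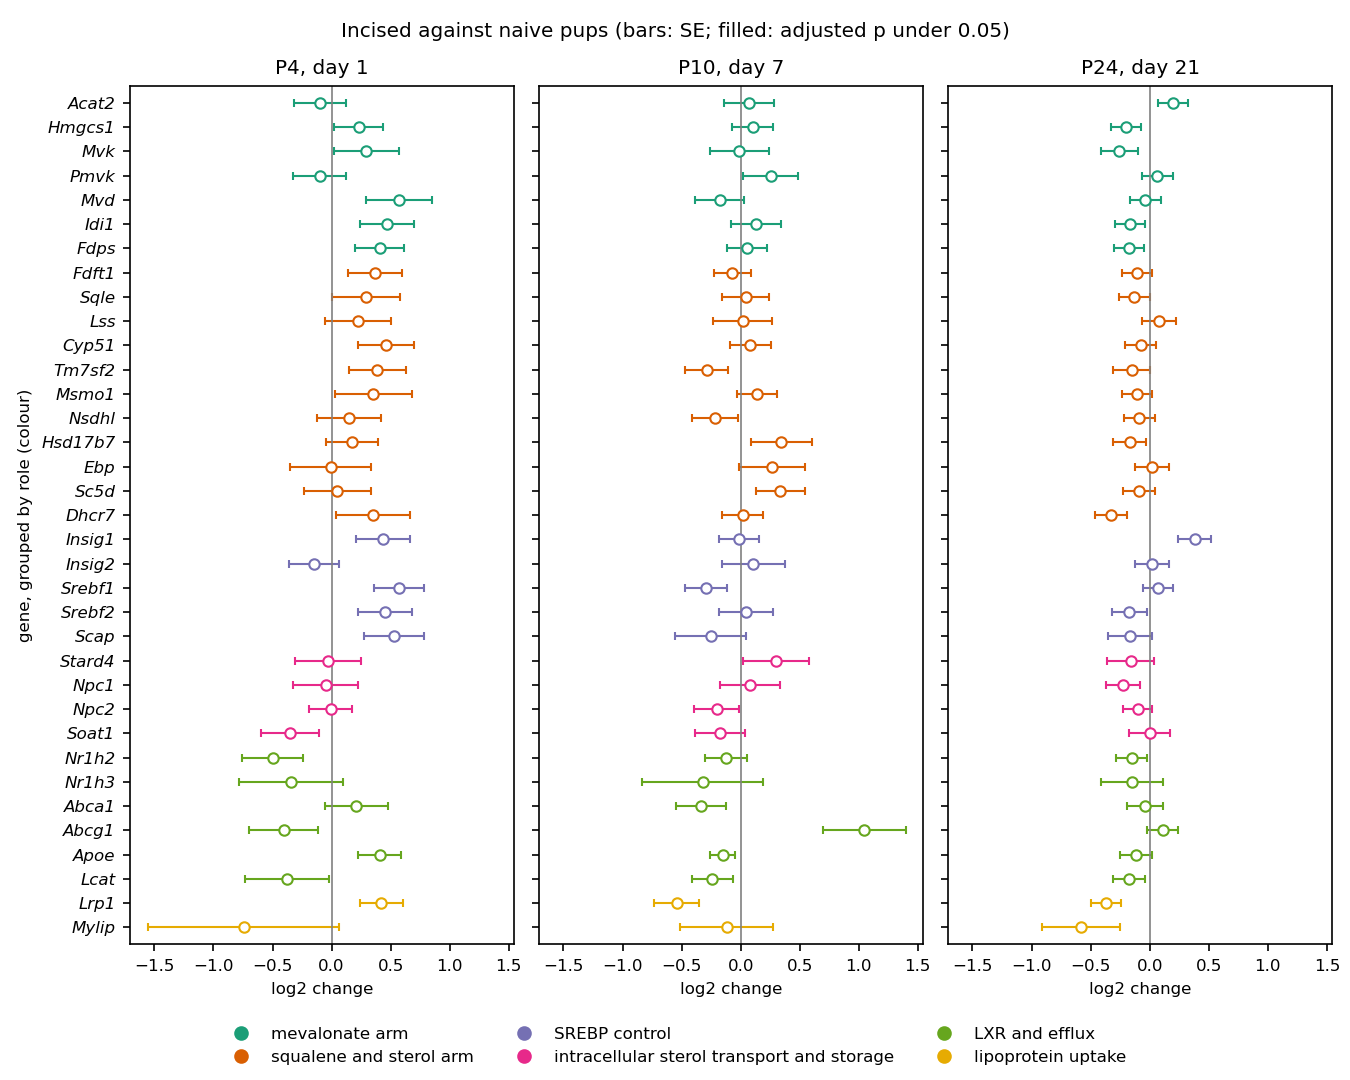
Log2 change ± SE (horizontal axis) of each of the 35 genes (vertical axis, coloured by role) in incised against naive pups, in 3 panels for P4, P10 and P24; a filled point would have an adjusted p under 0.05. No point is filled, and Lrp1 lies at 0.42, -0.54 and -0.37 in the 3 panels.

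The incision effects of the 3 ages were compared in a joint limma fit of the 13200 genes that the incision tables share. The test over all 3 ages was passed by 0 of 35 members and by 0.167% of genes. The lowest p-values were those of Lrp1 (adjusted p = 0.200) and Abcg1 (adjusted p = 0.208). For Lrp1 the effect at P10 minus that at P4 was -1.08 ± 0.29 on the log2 scale (adjusted p = 0.0992), and for Abcg1 it was 1.46 ± 0.39 (adjusted p = 0.0952), where 0.242% of genes were called. The Lrp1 difference passed without MB5 (-1.26, adjusted p = 0.0471) or MB13 (-1.23, adjusted p = 0.0452) and was -0.75 (adjusted p = 0.182) without MB15; the Abcg1 difference passed without MB7 (1.73, adjusted p = 0.0175), MB12 (1.66, adjusted p = 0.0399) or MB13 (1.67, adjusted p = 0.0383). Without MB7, the P4 incised library with the highest Abcg1, 1 member, Abcg1, passed the test over all 3 ages. Abcg1 was at 327, 388, 321 and 434 normalized counts in the P4 naive and 216, 237, 544 and 249 in the P4 incised libraries, where MB7 alone lay above the naive range and the other 3 lay below it. Among the other sterol genes 0 passed in any of the 3 incision comparisons, of 31, 33 and 33 tested.

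The authors' deposited tables gave the same count of members after incision, 0 at each age, where their adjusted p was under 0.05 for 0.534% of genes at P4, 0.0146% at P10 and 0.0525% at P24. In the authors' deposited table of age differences, 15 of the 35 had an adjusted p under 0.05, where 28.6% of genes did, and 6 had one under 0.001, where 13.5% did. Those 15 hold the 12 named above and also Hmgcs1, Npc1 and Mylip.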

How the data were processed

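Nuclear RNA of sorted dorsal horn astrocyte nuclei was measured in 24 libraries of mouse pups, 4 in each of 6 groups. Per the submitters' processing notes, the authors used STAR, Salmon and DESeq2 on mm10; versions are not given in the sources used here. The deposited signal values are normalized counts, which the authors scaled within each of 4 tables (incision at P4, P10 and P24, and age in naive pups); they are not whole numbers, so read counts and depth are unknown and no count test or counting interval was possible. Per the file headers, the authors also gave log2 fold changes with standard errors and p-values, raw and adjusted, and the deposited gene ontology tables hold adjusted p-values and other values, which are numbers of genes, not used for these results. Per the deposited information sheet, genes entered DESeq2 with 10 or more counts in 4 or more samples, and after testing the authors required, in some group, a normalized level above 20 and, in some group, a coefficient of variation below 0.65, so low and widely varying genes were removed before deposit.

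limma 3.58.1 (R 4.3.3, statmod 1.5.0; intensity trend, robust) modelled log2(value + 1) by group and sex. Changes on this scale understate those of low genes. A mean of at least 10 was required, which left out 0 genes. Tests were 2-sided, with Benjamini-Hochberg adjustment over all genes of a comparison and a threshold of 0.05. The 3 ages of the age table shared 1 fit, with an F test over ages, and the incision effect was compared between ages in 1 model over the 3 incision tables, whose levels were normalized separately. The sheet and the titles differ in sex for 4 libraries and in group for 2, so alternatives left out MB12 and MB16 or used the titles. The age table holds MB12 but not MB16, so there the first alternative and that with groups from the titles both left out MB12. Others changed the pseudocount (0.5 or 5), the filter (none, or 50), the limma settings, the sex term and the normalization (quantile), or left out each library. The fit was tried on simulated data with noise drawn independently for each gene. Those data lack the shared shifts of the enzymes within a library, so the trial cannot show how the fit handles them. Each library is from 1 mouse, and library numbers do not pair samples across groups. All 35 genes were named by role, whatever their values; genes past the threshold, and those with the lowest p-values where none passed, are given in full. The members and lists were chosen with earlier results of these data known. Promoters are from RefSeq (GRCm38.p6) and gene coordinates from GENCODE (GRCm38).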

Additional observations from a re-analysis of the deposited data

Results flagged for a closer look

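In each group of 4 libraries, a gene was listed here where 1 library stood so far from the other 3 that its gap to the nearest, divided by the whole range, was above Dixon's critical value for groups of this size. Of 210 groups (35 genes in 6 groups of the incision tables), 11 met this (5.24%), where chance alone gives about 1 in 20. Values are normalized counts.

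In the P4 naive group, MB4 was low for squalene epoxidase Sqle (1237, the other libraries 2261 to 2469) and for the C4 demethylation enzyme Msmo1 (1840, others 4654 to 4838). MB1 was high for Insig2 (460.6, others 334 to 349) and low for Srebf1 (645.1, others 1038 to 1109).

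In the P4 incised group, MB8 was high for the sterol isomerase Ebp (335.1, others 155 to 166). MB7 was low for Insig2 (290.8, others 331 to 337) and high for the efflux pump Abcg1 (543.5, others 216 to 249).

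At P10, Ebp in the naive library MB9 was high (359.2, others 169 to 187). Pmvk in the incised library MB16 was high (787.6, others 492 to 529); the title of MB16 gives another group.

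At P24, Nsdhl in the naive library MB20 was low (652.2, others 819 to 846). Abca1 in the incised library MB24 was low (339.7, others 369 to 375).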

How the results depend on the processing

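For the 26 log2 changes of single members that passed, or had the lowest p where none passed, 542 values were recomputed; all 542 kept their direction and 92 lost a call. Over all 35 members signs did turn, for up to 6, 12 and 6 in the incision comparisons at P4, P10 and P24, and for up to 4, 6 and 3 from P4 to P10, P10 to P24 and P4 to P24. Of 297 recomputed tests over the 3 ages, 24 lost a call. Without limma's trend and robust settings, 3 members were called from P4 to P10, 3 from P10 to P24, 1 from P4 to P24 and 5 across ages, in place of 6, 10, 7 and 12, and 0 genes were called for incision at P4 and 4 for an incision effect across ages. For incision at P4, 4 genes were called, and 9 with a mean of at least 50, 12 without the sex term and 15 with quantile normalization. For an incision effect across ages 22 genes were called, and 1 with sex from the titles, 8 without MB12 and MB16 and 12 with groups and sex from the titles.

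Leaving out each library in turn, genes called ranged from 0 to 8 for incision at P4, 0 to 1 at P10, 0 to 5 at P24, 0 to 50 for an incision effect across ages, and 1231 (without MB20) to 2069 from P10 to P24. Members called ranged from 4 to 10 from P10 to P24, 2 to 9 from P4 to P24 and 0 to 1 for an incision effect across ages, where the 1 was Abcg1 without MB7. The median log2 change of the members for incision at P4 ranged from -0.0399 without MB4 to 0.38 without MB5. The cause of these differences was not tested, beyond the smaller number of libraries.

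No paired analysis was possible because the library numbers follow accession order and link no samples across groups. Limits are 4 libraries a group, unknown depth, and labels that conflict for MB12 and MB16.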
